A study of Mus musculus with 20 samples.

Results

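Genes of arginine use were followed here through classically activated mouse macrophages: the nitric oxide synthase Nos2, the arginases Arg1 and Arg2, the citrulline recycling enzymes Ass1 and Asl, the arginine transporters Slc7a2 and Slc7a1, the polyamine enzyme Odc1, and Gch1 and Pts, which make the cofactor of nitric oxide synthase. They were chosen by gene name, 10 genes among 56748 genes listed, and all 10 had enough counts to be tested in both experiments, with 18691 and 19569 genes tested. In the first experiment, bulk RNA-seq was done on wildtype and iNOS KO cells, either unstimulated or given LPS at 50 ng/mL with IFNγ at 30 ng/mL during 48 h, and each of the 4 groups has 3 libraries. The labels name these cells bone marrow-derived macrophages (BMDM) of C57BL/6J mice of 6 to 12 weeks. The paper's methods instead place this RNA-seq in RAW264.7 cells, for which they give IFNγ at 10 ng/mL. The libraries are therefore called libraries labelled BMDM. In the second experiment, wildtype and Akr1a1 KO RAW264.7 cells, a mouse macrophage line, were left unstimulated or given LPS at 50 ng/mL with IFNγ at 10 ng/mL during 48 h, and each group has 2 libraries. According to the methods these 2 libraries were separate clones, the Akr1a1 KO was made by CRISPR-Cas9, and iNOS KO marrow cells would come from B6.129P2-Nos2tm1Lau/J mice, pooled by genotype before differentiation. For 1 library of each unstimulated RAW264.7 group (replicate B) the title says stimulated, while the treatment field says unstimulated. The treatment field was followed.

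Macrophages take up arginine through cationic amino acid transporters. Nos2 (inducible nitric oxide synthase, iNOS) turns it into nitric oxide (NO) and citrulline, and Ass1 followed by Asl return citrulline to arginine. Arginases compete for the same substrate and give ornithine, from which Odc1 makes putrescine, the first polyamine. Nos2 needs tetrahydrobiopterin, whose synthesis from GTP begins with Gch1 and continues with Pts. High Nos2 is the textbook mark of macrophages activated by LPS and IFNγ, and high Arg1 that of macrophages activated by IL-4.

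Libraries labelled BMDM held 15072109 to 18878107 counts in total, and RAW264.7 libraries 11876719 to 44583327. Levels are given in CPM, counts scaled to the same library total. A count of 0 allowed up to 0.144 to 0.216 CPM in the first and 0.0645 to 0.236 CPM in the second experiment, taken as 3 counts and covering counting error only. All 7 macrophage markers (such as Adgre1, Cd68 and Csf1r) were found in both experiments, at a summed 4546 to 9887 CPM in the libraries labelled BMDM and 2764 to 9526 CPM in RAW264.7 cells. Mertk was at 0 in unstimulated Akr1a1 KO cells. Markers of fibroblasts, lymphocytes and dendritic cells summed to at most 15.8 CPM in any library, the highest value being that of fibroblast markers in stimulated iNOS KO cells, with Col3a1 at 0 there. Neutrophil markers summed to 0.433 to 1.17 CPM in unstimulated and 35.5 to 62.1 CPM in stimulated libraries labelled BMDM, with S100a9, Ly6g and Ltf at 0 in both stimulated groups. In RAW264.7 cells they summed to 0.218 to 0.624 CPM and 121 to 420 CPM. Their part in the results was not tested. In bulk samples, fewer cells that express a gene and less RNA per cell cannot be told apart.

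The gene targeted in the second experiment checked the labels of that experiment. Unstimulated wildtype libraries held 427 and 488 CPM of Akr1a1, and unstimulated Akr1a1 KO libraries 206 and 21.8 CPM. After stimulation the values were 576 and 675 CPM for wildtype, against 370 and 212 CPM for Akr1a1 KO. Within each state the transcript was lower in every Akr1a1 KO library but was still present, and the clones of 1 group differed.

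The stretch before a listed gene start is shown for 4 of the genes, because members that changed together can be compared there. RefSeq promoter windows (build GRCm38.p6) were at hand for 5 of the 10 members. Each sequence is the 250 bases before the start, read 5′ to 3′ on the strand of the gene, in lower case. Capitals mark matches on either strand to any of 6 motifs, which were GGGNNTTCC (NF-κB core), TTCNNNGAA (GAS, the interferon gamma activated site), GAAANNGAA (ISRE core), CACGTG (E-box), TGACGTCA (CRE) and GGGCGG (GC box). Ass1, Gch1 and Odc1 were among the genes that rose with stimulation, and Slc7a1 fell in stimulated wildtype libraries labelled BMDM. Slc7a1 also has a window at chr5:148399905-148400154, further upstream on its strand, which is not shown. The Slc7a1 window shown thus lies before a different, downstream start.
Ass1 (chr2:31470020-31470269, plus strand): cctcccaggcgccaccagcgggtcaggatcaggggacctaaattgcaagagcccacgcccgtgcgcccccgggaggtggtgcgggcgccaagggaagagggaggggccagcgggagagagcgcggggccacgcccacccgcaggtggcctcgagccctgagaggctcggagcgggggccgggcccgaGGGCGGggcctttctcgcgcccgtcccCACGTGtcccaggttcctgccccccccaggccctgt
Gch1 (chr14:47189414-47189663, minus strand): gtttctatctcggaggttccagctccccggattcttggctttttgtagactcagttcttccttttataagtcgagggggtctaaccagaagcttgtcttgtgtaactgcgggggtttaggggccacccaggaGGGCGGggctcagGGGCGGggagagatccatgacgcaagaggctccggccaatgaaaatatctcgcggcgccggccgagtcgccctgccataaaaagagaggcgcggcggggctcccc
Odc1 (chr12:17544623-17544872, plus strand): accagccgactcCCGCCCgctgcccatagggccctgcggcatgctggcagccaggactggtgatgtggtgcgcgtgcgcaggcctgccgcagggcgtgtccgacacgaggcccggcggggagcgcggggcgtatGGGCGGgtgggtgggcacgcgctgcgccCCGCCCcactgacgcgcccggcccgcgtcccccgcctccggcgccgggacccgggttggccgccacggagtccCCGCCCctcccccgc
Slc7a1 (chr5:148392816-148393065, minus strand): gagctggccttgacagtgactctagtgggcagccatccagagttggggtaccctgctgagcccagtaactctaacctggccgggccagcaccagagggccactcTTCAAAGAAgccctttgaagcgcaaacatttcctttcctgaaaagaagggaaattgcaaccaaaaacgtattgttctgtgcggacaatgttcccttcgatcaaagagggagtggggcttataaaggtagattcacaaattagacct

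In these windows GC boxes were found in Ass1, Gch1, Odc1 and Pts and in the other Slc7a1 window, and 32.7% of all 32851 RefSeq windows of this length hold one. Ass1 also held an E-box 36 bases before the start (6.02% of all windows). The Slc7a1 window shown held a GAS motif beginning 146 bases before its start (7.02% of all windows), and the upstream Slc7a1 window held none. The NF-κB core (4.98%), the ISRE core (7.13%) and the CRE (1.55%) were in none of the members' windows. A match is a description of letters and does not show that a factor binds.

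Gene positions from here on are as the count tables list them, and those name no genome build. They do not share the build of the promoter windows, since the Ass1 window begins at 31470020, past the listed gene end at 31410684. Nos2 (ENSMUSG00000020826, chromosome 11, 78811613 to 78851080 on the plus strand) was close to silent before stimulation in the libraries labelled BMDM. Its level was 1.25, 1.45 and 1.53 CPM in unstimulated wildtype libraries and 10370, 11533 and 11312 CPM in stimulated ones. All 3 unstimulated iNOS KO libraries held 0 counts, and the stimulated ones held 870, 891 and 912 CPM. Counts on the gene were thus still present in stimulated iNOS KO cells (gene-level counts do not show from which exons), and every stimulated wildtype library stood above every stimulated iNOS KO library. In wildtype cells the rise was 7873-fold (log2 fold change 12.94, standard error 0.10, adjusted p = 4.26e-19 from the quasi-likelihood test of edgeR, adjusted by Benjamini-Hochberg, as for all adjusted p below unless another tool is named). In iNOS KO cells the rise was at least 6073-fold, set against the limit of 3 counts per library. In stimulated cells, iNOS KO fell by 3.64 on the log2 scale below wildtype (standard error 0.06, adjusted p = 4.96e-15), which is 12.4-fold lower. In unstimulated cells it was at least 9.58-fold lower (adjusted p = 5.03e-08).

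In RAW264.7 cells Nos2 was variable before stimulation. Unstimulated wildtype libraries held 4.21 and 30.7 CPM and unstimulated Akr1a1 KO libraries 54.7 and 38.1 CPM. The library whose title says stimulated had the higher value in wildtype and the lower value in Akr1a1 KO cells. After stimulation the values were 4155 and 5899 CPM in wildtype and 4445 and 8806 CPM in Akr1a1 KO cells. Both libraries so titled were below every stimulated library in Nos2, and also in Odc1 (473 and 607 CPM against 8698 CPM or more). Both genotypes rose without overlap, by 8.12 in wildtype (standard error 0.94, adjusted p = 0.000285) and 7.16 in Akr1a1 KO cells (standard error 0.90, adjusted p = 0.000416) on the log2 scale. The stimulated genotypes overlapped, with a log2 difference of 0.40 and a 95% interval from -1.19 to 1.98.

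**Figure D1:**
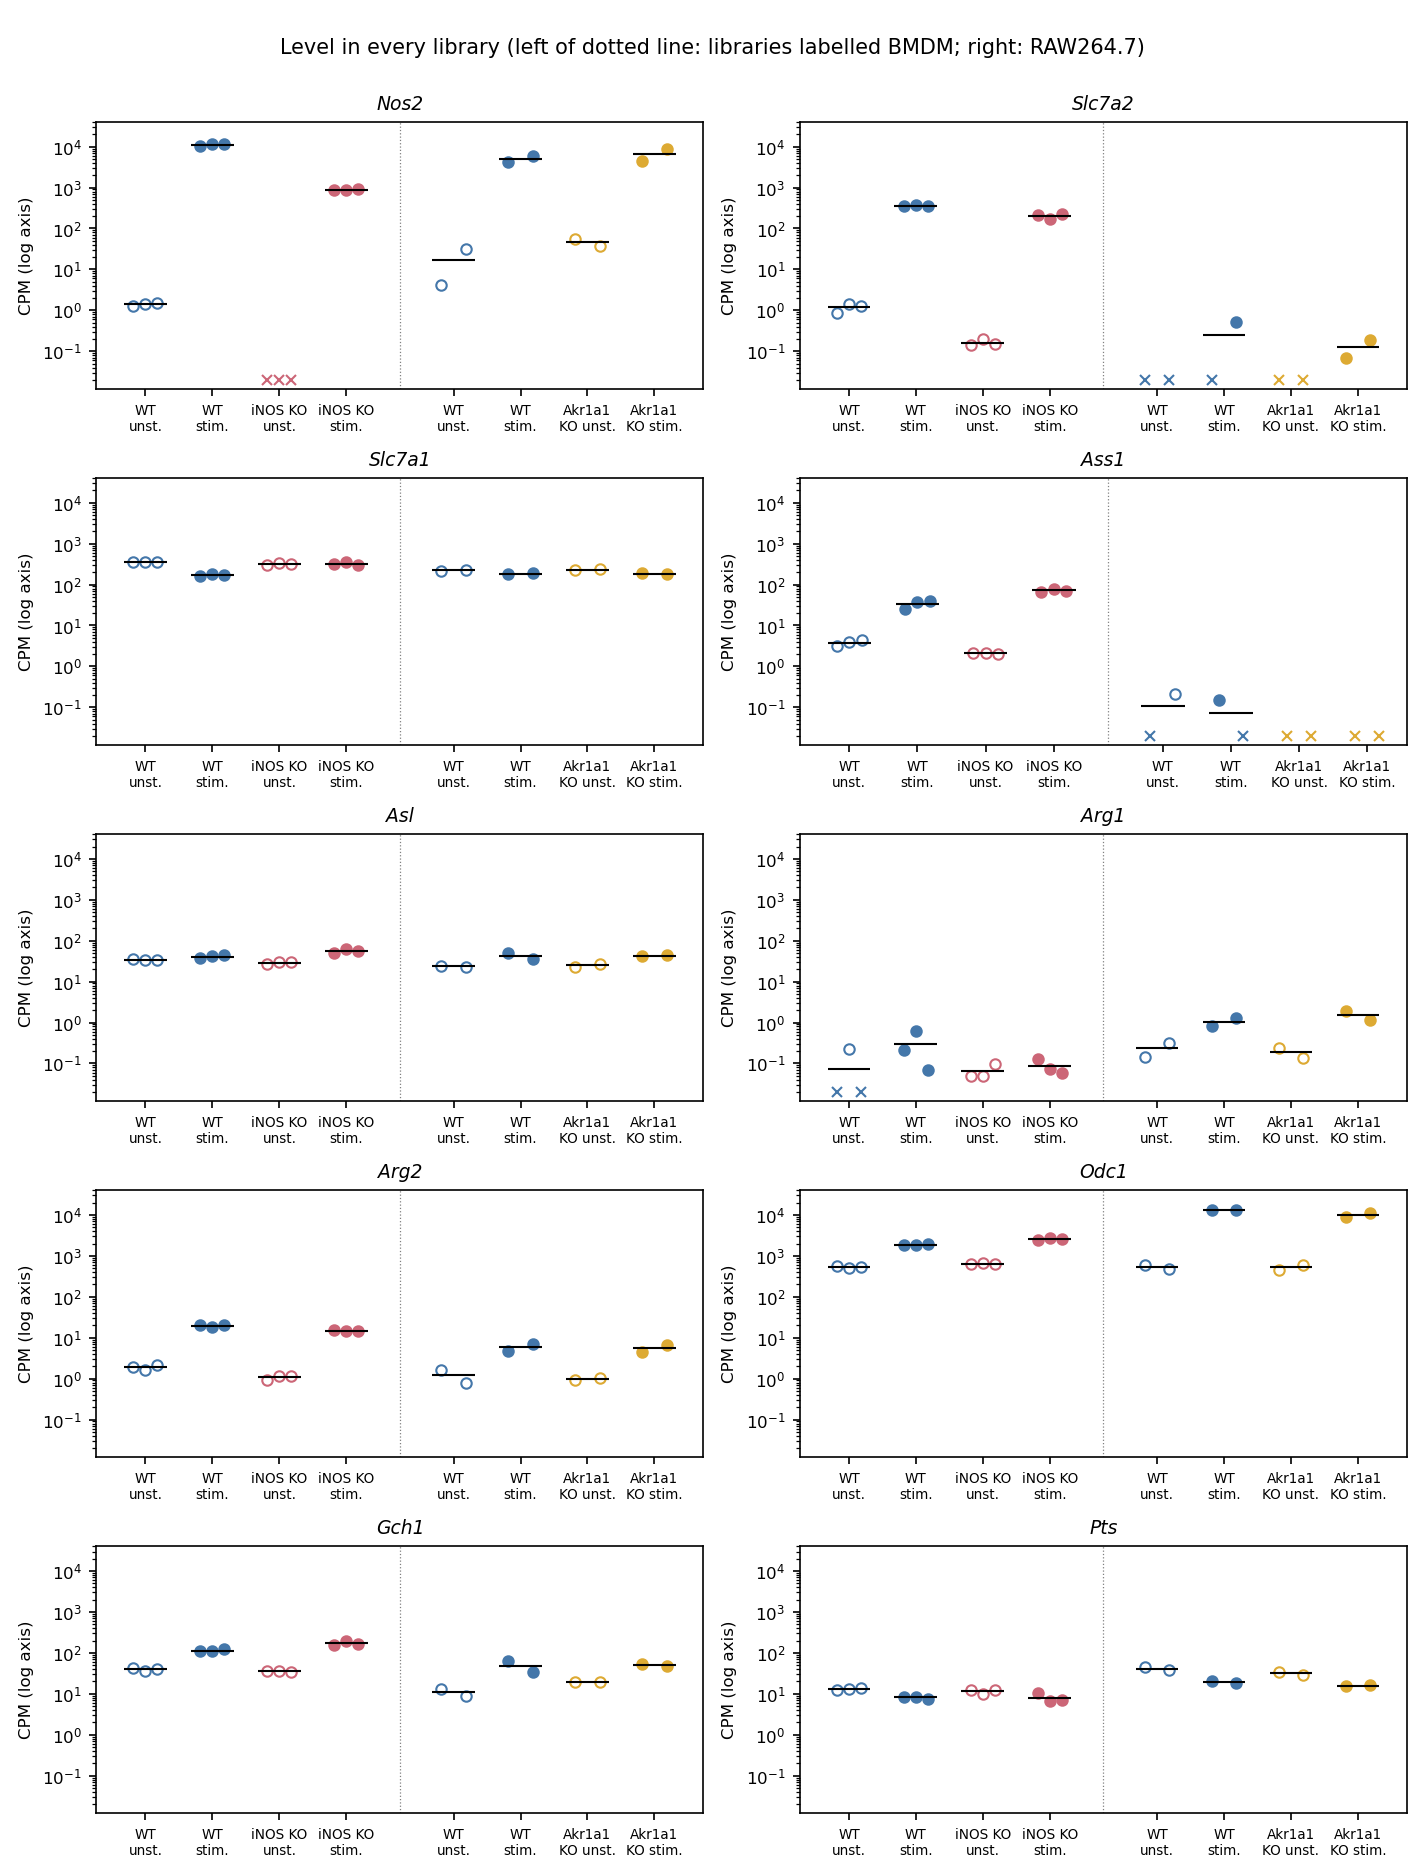
Level of each of the 10 genes in every library in CPM on a log axis, with open symbols for unstimulated, filled symbols for stimulated cells, crosses for libraries at 0 counts (drawn at the bottom) and a bar for the group mean. Nos2 stands at 10370 to 11533 CPM in stimulated wildtype and 870 to 912 CPM in stimulated iNOS KO libraries labelled BMDM, and Slc7a2 and Ass1 are at or near 0 in all RAW264.7 libraries.

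Slc7a2 (ENSMUSG00000031596, chromosome 8, 41315433 to 41375345, plus strand), the inducible cationic amino acid transporter, rose along with Nos2 in the libraries labelled BMDM but was at or near 0 in RAW264.7 cells. Unstimulated wildtype libraries labelled BMDM held 0.847, 1.39 and 1.29 CPM, and stimulated ones 363, 377 and 351 CPM. Unstimulated iNOS KO libraries held 0.144, 0.199 and 0.146 CPM (3 or 4 counts each), and stimulated ones 215, 175 and 224 CPM. The 4 groups did not overlap, with iNOS KO below wildtype in both states. Stimulation raised it by 8.28 on the log2 scale in wildtype cells (standard error 0.14, adjusted p = 1.95e-17) and by 10.23 in iNOS KO cells (standard error 0.18, adjusted p = 3.28e-17). As a ratio of summed counts the iNOS KO rise was 1267-fold, with a 95% exact interval of 688 to 2642 that covers counting error only. Stimulated iNOS KO cells fell by 0.83 on the log2 scale below wildtype (standard error 0.09, adjusted p = 6.71e-07). In RAW264.7 cells the gene was at 0 counts in all unstimulated libraries and at no more than 9 counts in any stimulated one, so no fold change is given. A rise in wildtype passed the test only without stimulated replicate A (adjusted p = 0.0363), when it rested on those 9 counts of 1 library.

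Slc7a1 (ENSMUSG00000041313, chromosome 5, 148264220 to 148336714, minus strand), the constitutive transporter for the same amino acids, moved the opposite way in wildtype libraries labelled BMDM. Its level was 361, 355 and 364 CPM in unstimulated and 161, 186 and 171 CPM in stimulated wildtype libraries. For iNOS KO the values were 306, 341 and 324 CPM before and 313, 353 and 309 CPM after stimulation. The stimulated wildtype libraries stood below all others, while the iNOS KO groups overlapped. The wildtype fall was 2.08-fold (log2 fold change -1.06, standard error 0.07, adjusted p = 7.52e-10). In iNOS KO cells the log2 change was 0.01, with a 95% interval from -0.14 to 0.16. In RAW264.7 cells the log2 change with stimulation was -0.27 in wildtype (adjusted p = 0.107) and -0.33 in Akr1a1 KO cells (adjusted p = 0.0562), from 177 to 192 CPM stimulated against 212 to 238 CPM unstimulated, and neither passed the test. The Akr1a1 KO change was called when either stimulated wildtype library was left out (adjusted p = 0.0411 and 0.041) by DESeq2 (adjusted p = 0.0419) and among protein-coding genes alone (adjusted p = 0.0449).

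Levels of different genes were set side by side as CPM per kilobase of listed gene length. That length need not be the length of the transcripts expressed, so ratios and orders between genes depend on it. For Pts it is 6101 bases, in a gene listed at 50432917 to 50440024. On this scale Slc7a2 made up 0.411% ± 0.103 (SD, n = 3) of the sum of both transporters in unstimulated wildtype libraries labelled BMDM. After stimulation its share was 72.6% ± 1.11 (SD, n = 3) in wildtype and 44.2% ± 5.02 (SD, n = 3) in iNOS KO cells. The lowest iNOS KO share, 38.5%, was that of replicate B, the library furthest from its replicates over all genes. Every stimulated wildtype share (71.9 to 73.9%) was above every iNOS KO share (38.5 to 47.8%). In RAW264.7 cells the share was at most 0.339% in any library.

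Ass1 (ENSMUSG00000076441, chromosome 2, 31360219 to 31410684, plus strand), the enzyme that joins citrulline to aspartate and the rate-limiting step of citrulline recycling, rose in both genotypes labelled BMDM. Wildtype libraries held 3.14, 3.95 and 4.34 CPM unstimulated and 24.9, 38.2 and 39.2 CPM stimulated. The iNOS KO libraries held 2.12, 2.09 and 2.00 CPM unstimulated and 67.2, 77.5 and 70.6 CPM stimulated. The order of the genotypes turned with stimulation, iNOS KO being below wildtype in every unstimulated library and above it in every stimulated one. The rise was 8.98-fold in wildtype (log2 3.17, standard error 0.17, adjusted p = 3.01e-11) and 34.5-fold in iNOS KO cells (log2 5.11, standard error 0.18, adjusted p = 1.98e-13). Stimulated iNOS KO cells were 2.10-fold above stimulated wildtype (log2 1.07, standard error 0.13, adjusted p = 3.69e-06). In RAW264.7 cells Ass1 was at 10 counts in 1 unstimulated wildtype library, at 2 counts in 1 stimulated wildtype library and at 0 counts in the other 6, so no fold change is given.

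Asl (ENSMUSG00000025533, chromosome 5, 130040099 to 130058088, minus strand), which splits argininosuccinate into arginine and fumarate, changed less. Wildtype libraries labelled BMDM held 36.0, 33.4 and 33.5 CPM unstimulated and 37.6, 41.1 and 43.9 CPM stimulated. Those of iNOS KO cells held 27.2, 29.7 and 29.7 CPM unstimulated and 50.1, 64.4 and 54.5 CPM stimulated. The stimulated iNOS KO libraries were the highest of all 12. The log2 change was 0.25 in wildtype (adjusted p = 0.0296, and 0.0679 to 0.269 without unstimulated or stimulated wildtype replicate B or C) and 0.96 in iNOS KO cells (adjusted p = 1.92e-07). Stimulated iNOS KO cells were 1.38-fold above wildtype (log2 0.46, standard error 0.09, adjusted p = 0.000579). In RAW264.7 cells Asl rose from 23.1 to 27.4 CPM to 34.7 to 49.2 CPM, by 0.83 on the log2 scale in wildtype (adjusted p = 0.00816) and 0.76 in Akr1a1 KO cells (adjusted p = 0.012). The wildtype call was lost without unstimulated wildtype replicate B (adjusted p = 0.0527), and the Akr1a1 KO call without unstimulated Akr1a1 KO replicate A (0.0862) or stimulated Akr1a1 KO replicate B (0.0523).

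Per kilobase, the level of Ass1 was 0.224 ± 0.0440 times (SD, n = 3) that of Asl in unstimulated wildtype libraries labelled BMDM and 1.66 ± 0.291 times in stimulated ones. In iNOS KO cells the ratio was 0.144 ± 0.0108 unstimulated and 2.56 ± 0.141 stimulated. On this scale the recycling pair changed from more Asl to more Ass1 in both genotypes, and the stimulated groups did not overlap. Without division by length, Ass1 was still below Asl in every stimulated wildtype library (24.9 to 39.2 against 37.6 to 43.9 CPM). In RAW264.7 cells Asl was present with almost no Ass1, the ratio being at most 0.0186.

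**Figure D2:**
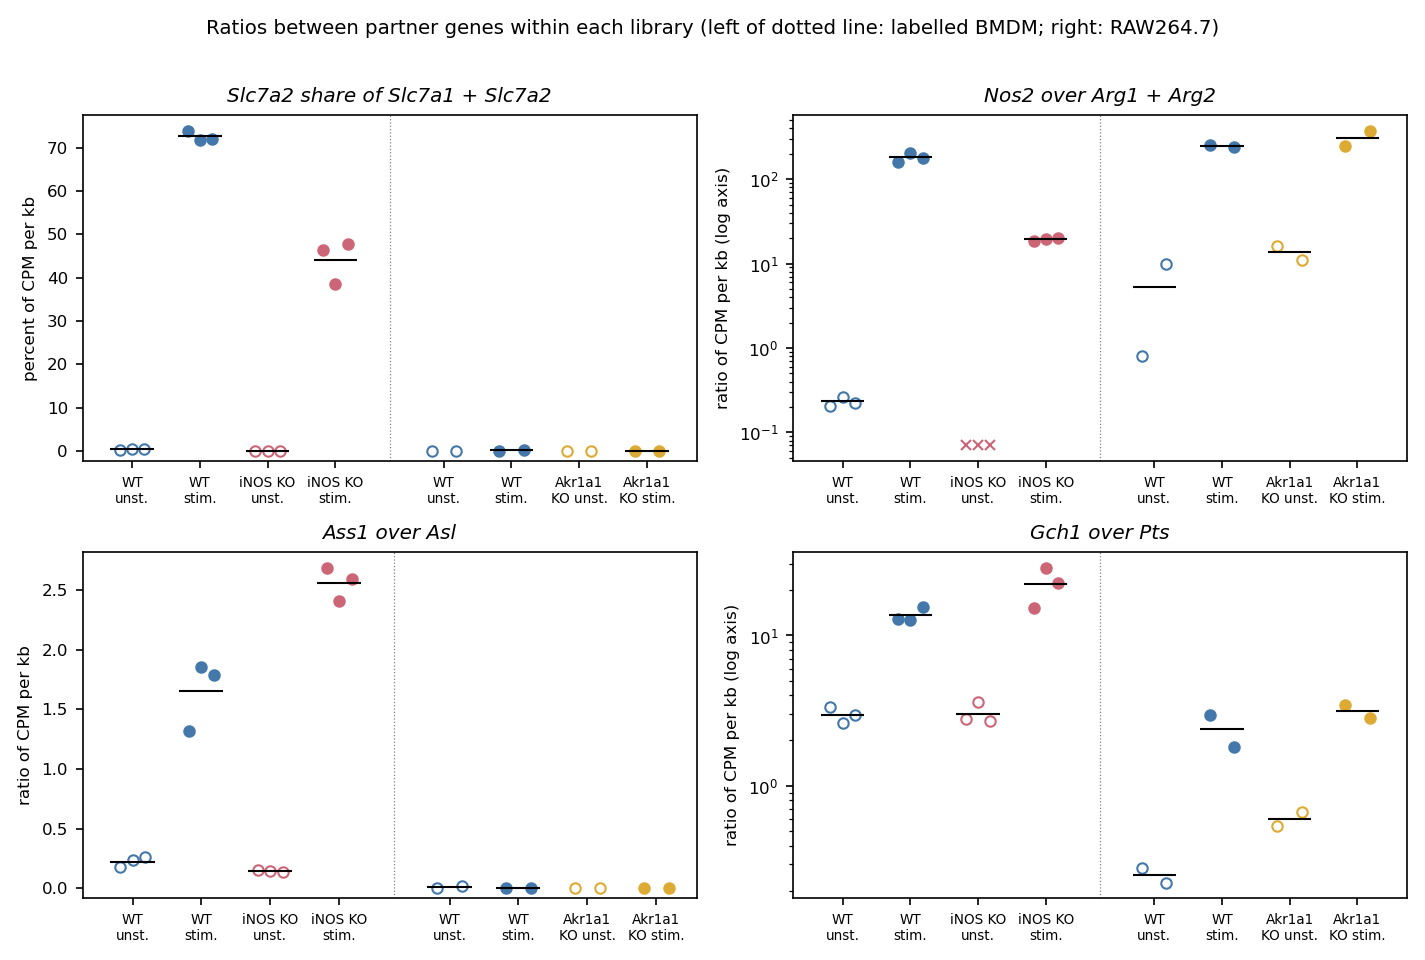
Ratios between partner genes within each library, computed from CPM per kilobase (percent for the transporters; log axes for Nos2 over both arginases and for Gch1 over Pts), with bars for group means and crosses at the bottom for libraries with no Nos2. The Slc7a2 share is 71.9 to 73.9% in stimulated wildtype and 38.5 to 47.8% in stimulated iNOS KO libraries, and Ass1 exceeds Asl only in the stimulated libraries labelled BMDM.

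Arg1 (ENSMUSG00000019987, chromosome 10, 24791119 to 24803382, minus strand), the cytosolic arginase, was at the edge of detection. In the libraries labelled BMDM it was at 0, 4 and 0 counts in unstimulated and 3, 9 and 1 counts in stimulated wildtype libraries, and at 1 or 2 counts in each of the 6 iNOS KO libraries. The ratio of summed counts with stimulation in wildtype cells was 4.10, with a 95% exact interval of 1.27 to 17.3 for counting error only, and the groups overlapped. No comparison passed the test there (adjusted p = 0.109 for wildtype stimulation), except that the wildtype rise was called when unstimulated replicate B was left out (adjusted p = 0.0085). In RAW264.7 cells Arg1 was at 0.145 and 0.322 CPM in unstimulated and 0.818 and 1.29 CPM in stimulated wildtype libraries. In Akr1a1 KO libraries it was at 0.236 and 0.139 CPM and then at 1.94 and 1.13 CPM. The stimulated libraries, at 11 to 29 counts, stood above the unstimulated ones in both genotypes. The log2 changes of 2.02 (adjusted p = 0.0335) and 3.08 (adjusted p = 0.00709) passed the test. The first was lost without unstimulated wildtype replicate A or B or stimulated wildtype replicate B (adjusted p = 0.0704 to 0.137) and in a fit of just the groups compared (adjusted p = 0.0672), and the second without unstimulated Akr1a1 KO replicate B (adjusted p = 0.074).

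Arg2 (ENSMUSG00000021125, chromosome 12, 79177551 to 79203075, plus strand), the mitochondrial arginase, carried nearly all arginase transcript. In wildtype libraries labelled BMDM it was at 1.94, 1.61 and 2.17 CPM unstimulated and 20.5, 17.8 and 20.1 CPM stimulated. In iNOS KO libraries it was at 0.915, 1.14 and 1.17 CPM unstimulated and 15.1, 14.6 and 14.4 CPM stimulated. The iNOS KO libraries were below the wildtype ones in both states without overlap. It rose 10.2-fold in wildtype (log2 3.35, standard error 0.13, adjusted p = 7.36e-13) and 13.6-fold in iNOS KO cells (log2 3.76, standard error 0.15, adjusted p = 8.72e-13). Stimulated iNOS KO cells fell by 0.40 on the log2 scale below wildtype (standard error 0.11, adjusted p = 0.00455). In RAW264.7 cells Arg2 rose from 0.795 to 1.60 CPM to 4.56 to 7.15 CPM, by 2.37 on the log2 scale in wildtype (adjusted p = 0.00357) and 2.53 in Akr1a1 KO cells (adjusted p = 0.00269). Per kilobase, Arg2 made up at least 91.9% of both arginases in the libraries labelled BMDM, and 78.5 to 94.5% in those of RAW264.7.

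Set against both arginases together, the level of Nos2 per kilobase was 0.232 ± 0.0299 times (SD, n = 3) their sum in unstimulated and 182 ± 21.4 times in stimulated wildtype libraries labelled BMDM. In stimulated iNOS KO libraries the ratio was 19.4 ± 0.952. In RAW264.7 cells it was 0.801 and 9.84 in unstimulated wildtype libraries and 238 and 257 in stimulated ones. Stimulated Akr1a1 KO libraries had 246 and 377. Nos2 transcript exceeded arginase transcript in every stimulated library, iNOS KO included.

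Odc1 (ENSMUSG00000011179, chromosome 12, 17594795 to 17601506, plus strand), the rate-limiting enzyme of polyamine synthesis, was the most abundant member per kilobase in every unstimulated group, at 156 to 188 CPM per kilobase in the group means. Wildtype libraries labelled BMDM held 553, 516 and 547 CPM unstimulated and 1798, 1868 and 1898 CPM stimulated. The iNOS KO libraries held 620, 675 and 626 CPM unstimulated and 2399, 2762 and 2555 CPM stimulated. The iNOS KO libraries were above the wildtype ones in both states. The rise was 3.44-fold in wildtype (log2 1.78, standard error 0.06, adjusted p = 1.44e-13) and 4.02-fold in iNOS KO cells (log2 2.01, standard error 0.06, adjusted p = 5.43e-14). Stimulated iNOS KO cells were 1.39-fold above wildtype (log2 0.47, standard error 0.06, adjusted p = 5.52e-06).

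The rise of Odc1 was larger in RAW264.7 cells. Wildtype libraries held 587 and 473 CPM unstimulated and 13109 and 13327 CPM stimulated, and Akr1a1 KO libraries held 461 and 607 CPM and then 8698 and 11026 CPM. The rise was 24.9-fold in wildtype (log2 4.64, standard error 0.25, adjusted p = 6.26e-06) and 18.5-fold in Akr1a1 KO cells (log2 4.21, standard error 0.25, adjusted p = 8.67e-06). The stimulated genotypes did not overlap, yet their log2 difference of -0.42 (95% interval -0.92 to 0.07, adjusted p = 0.51) did not pass the test.

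Cell cycle genes moved strongly in the same libraries, the other way from Odc1 on stimulation. The summed level of Mki67, Top2a, Ccnb1, Cdk1 and Ccna2 was 1357 to 1489 CPM in unstimulated and 45.1 to 47.6 CPM in stimulated wildtype libraries labelled BMDM. In iNOS KO libraries it was 1417 to 1596 CPM and 600 to 874 CPM, so that the stimulated iNOS KO libraries stood between the other groups. In RAW264.7 cells it was 2494 to 2999 CPM unstimulated and 12.1 to 27.4 CPM stimulated over both genotypes. The paper describes BMDM as not proliferating in either genotype or state, and proliferation of RAW264.7 cells as inhibited by NO made on stimulation. Which cells the libraries labelled BMDM hold was not tested. The part of proliferation in the values of Odc1 and of the other members was not tested.

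Gch1 (ENSMUSG00000037580, chromosome 14, 47391352 to 47426870, minus strand), GTP cyclohydrolase 1, the rate-limiting enzyme of tetrahydrobiopterin synthesis, rose in every setting. Wildtype libraries labelled BMDM held 42.4, 36.3 and 41.0 CPM unstimulated and 108, 112 and 122 CPM stimulated. Those of iNOS KO cells held 35.2, 36.8 and 34.2 CPM unstimulated and 159, 192 and 164 CPM stimulated. Unstimulated genotypes overlapped, and every stimulated iNOS KO library was above every stimulated wildtype library. The rise was 2.86-fold in wildtype (log2 1.51, standard error 0.09, adjusted p = 8.65e-11) and 4.85-fold in iNOS KO cells (log2 2.28, standard error 0.09, adjusted p = 7.90e-13). Stimulated iNOS KO cells were 1.51-fold above wildtype (log2 0.59, standard error 0.08, adjusted p = 1.36e-05). In RAW264.7 cells Gch1 was at 13.1 and 8.79 CPM in unstimulated and 63.3 and 33.7 CPM in stimulated wildtype libraries. In Akr1a1 KO libraries it was at 19.2 and 19.9 CPM and then at 53.9 and 47.8 CPM. The log2 changes were 2.16 (standard error 0.31, adjusted p = 0.000834) and 1.38 (standard error 0.30, adjusted p = 0.00669). Unstimulated Akr1a1 KO libraries stood above the wildtype ones without overlap, a log2 difference of 0.86 (95% interval 0.16 to 1.55) with an adjusted p of 0.485.

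Pts (ENSMUSG00000032067, chromosome 9, 50432917 to 50440024, minus strand), the next enzyme of the same pathway, went down where Gch1 went up. Wildtype libraries labelled BMDM held 12.4, 13.5 and 13.6 CPM unstimulated and 8.24, 8.57 and 7.63 CPM stimulated. The iNOS KO libraries held 12.4, 9.95 and 12.4 CPM unstimulated and 10.2, 6.63 and 7.16 CPM stimulated, and these groups overlapped by 1 library. The log2 change was -0.69 in wildtype (standard error 0.15, adjusted p = 0.000614) and -0.53 in iNOS KO cells (standard error 0.15, adjusted p = 0.00557). In RAW264.7 cells Pts fell from 44.7 and 37.8 CPM to 21.0 and 18.1 CPM in wildtype (log2 -1.08, adjusted p = 0.00135) and from 34.7 and 29.3 CPM to 15.2 and 16.6 CPM in Akr1a1 KO cells (2.01-fold, adjusted p = 0.00191). Per kilobase, Gch1 was 2.98 ± 0.357 times (SD, n = 3) the level of Pts in unstimulated and 13.7 ± 1.59 times in stimulated wildtype libraries labelled BMDM. In RAW264.7 wildtype libraries it was 0.227 and 0.285 times before and 1.82 and 2.93 times after stimulation.

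Counted together, 7 of the 10 members rose and 2 fell with stimulation in wildtype libraries labelled BMDM, where 32.4% of all genes tested were called higher and 28.5% lower. The median log2 change was 1.85 over the members and 0.07 over all genes tested. In iNOS KO cells 7 rose and 1 fell, against 27.3% and 24.6% of all genes. In RAW264.7 wildtype cells 6 rose and 1 fell, against 18.5% and 19.2% of all genes, with a median of 2.09 over the members and -0.03 over all genes. In Akr1a1 KO cells 6 rose and 1 fell, against 19.8% and 19.4%. Nos2, Arg2, Asl, Odc1 and Gch1 rose and Pts fell in all 4 of these comparisons. The rise of Slc7a2 and Ass1 was called only in the libraries labelled BMDM, and that of Arg1 only in RAW264.7 cells. By the labels, cells and IFNγ dose differed between the experiments, whereas the paper's methods name RAW264.7 cells for both. Sequencing differed as well, and the difference between the experiments was not tested.

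**Figure D3:**
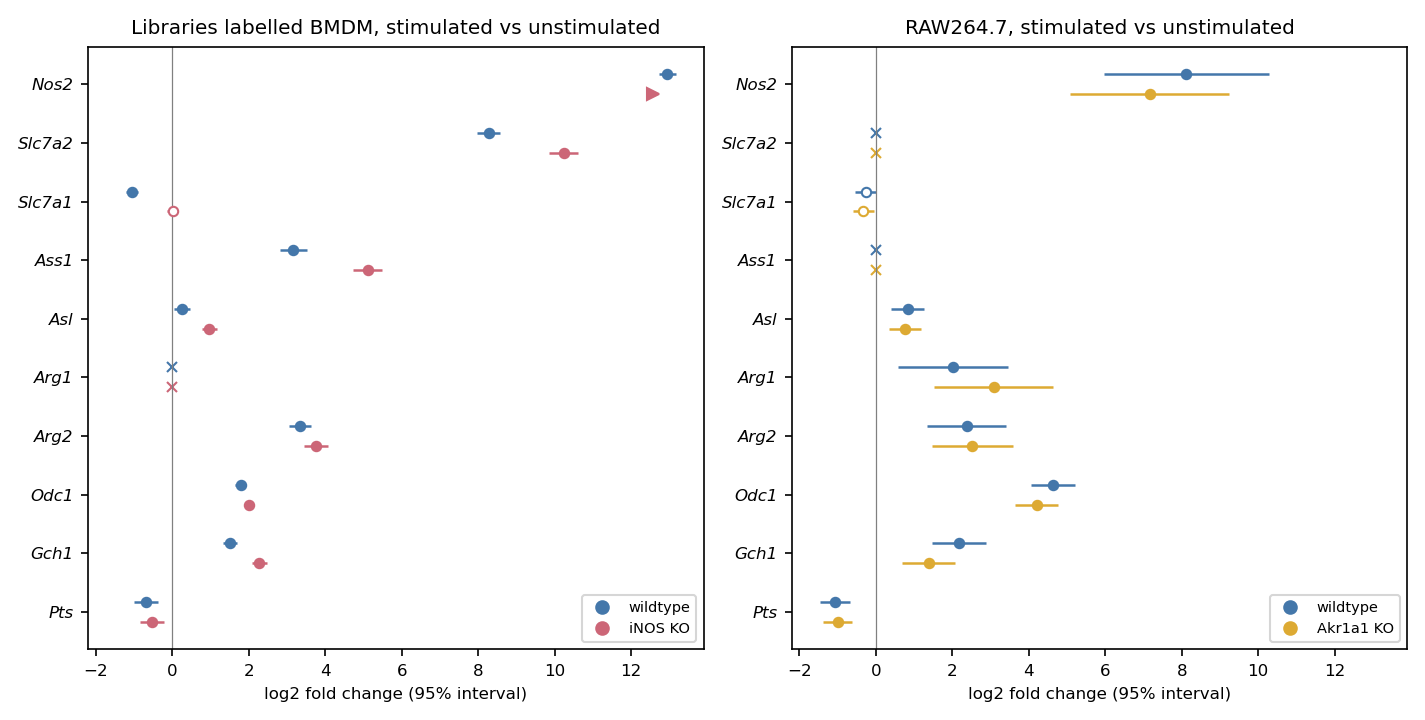
Log2 fold change of stimulated against unstimulated cells with its 95% interval for the 10 genes in each genotype, filled where the adjusted p was under 0.05. The triangle is the lower bound of Nos2 in iNOS KO cells (at least 6073-fold), and crosses at 0 mark genes with at most 10 counts in any library of the pair, for which no fold is given.

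The order of the levels per kilobase in stimulated cells also differed by genotype. In stimulated wildtype libraries labelled BMDM the order of the group means was Nos2 (2494 CPM per kilobase), Odc1 (545), Slc7a2 (39.8), Gch1 (18.2), Slc7a1 (15.0), Ass1 (14.1), Arg2 (13.6), Asl (8.46), Pts (1.34) and Arg1 (0.132). The ranges of Slc7a1 and Ass1 overlapped, as did those of Ass1 and Arg2. In stimulated iNOS KO libraries Odc1 (755 CPM per kilobase) came before Nos2 (201), followed by Ass1 (29.7), Slc7a1 (28.2) and Gch1 (27.5), whose ranges overlapped, and by Slc7a2 (22.4). In stimulated RAW264.7 cells Odc1 was first and Nos2 second in both genotypes, at 3882 and 1132 CPM per kilobase in wildtype.

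The comparison of stimulated iNOS KO with stimulated wildtype cells asks which levels after stimulation differ between the genotypes, not whether the response to stimulation differs. In it 5 members were higher (Ass1, Slc7a1, Gch1, Odc1 and Asl) and 3 lower (Nos2, Slc7a2 and Arg2), while 24.2% of all genes tested were called higher and 24.2% lower. The share of members called was 8 of 10, and the sizes were mostly small, since only Nos2 and Ass1 differed by more than 1 on the log2 scale. The 5 higher genes serve citrulline recycling (Ass1, Asl), basal arginine uptake (Slc7a1), putrescine synthesis (Odc1) and cofactor synthesis (Gch1). Pts had a log2 difference of -0.02, with a 95% interval from -0.35 to 0.31.

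Before stimulation, 1 member was higher in iNOS KO cells (Odc1, log2 0.25, adjusted p = 0.0204) and 4 were lower, against 1.88% and 4.09% of all genes. These shares rest on 1117 genes called, and 685 were called without unstimulated wildtype replicate C, 739 without unstimulated iNOS KO replicate A and 2379 without stimulated iNOS KO replicate B. The lower ones were Nos2, Slc7a2 (log2 -2.78, standard error 0.35, adjusted p = 6.54e-05), Ass1 (log2 -0.87, standard error 0.22, adjusted p = 0.0229) and Arg2 (log2 -0.82, standard error 0.19, adjusted p = 0.0125). Slc7a2 rested on 10 counts in iNOS KO against 64 counts in wildtype libraries, a ratio of 0.140 with a 95% exact interval of 0.0642 to 0.275 for counting error only. The calls of Nos2 and Slc7a2 remained when any 1 library was left out. Those of Ass1, Arg2 and Odc1 did not, each being lost without several single unstimulated libraries, and without unstimulated wildtype replicate C all 3 were lost (adjusted p = 0.111, 0.0752 and 0.0673), leaving 2 members called. Asl (log2 -0.25) was called without stimulated iNOS KO replicate B (adjusted p = 0.018). In a fit of just the groups compared, Asl (adjusted p = 0.0288) and Slc7a1 (adjusted p = 0.0443) were called as lower.

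**Figure D4:**
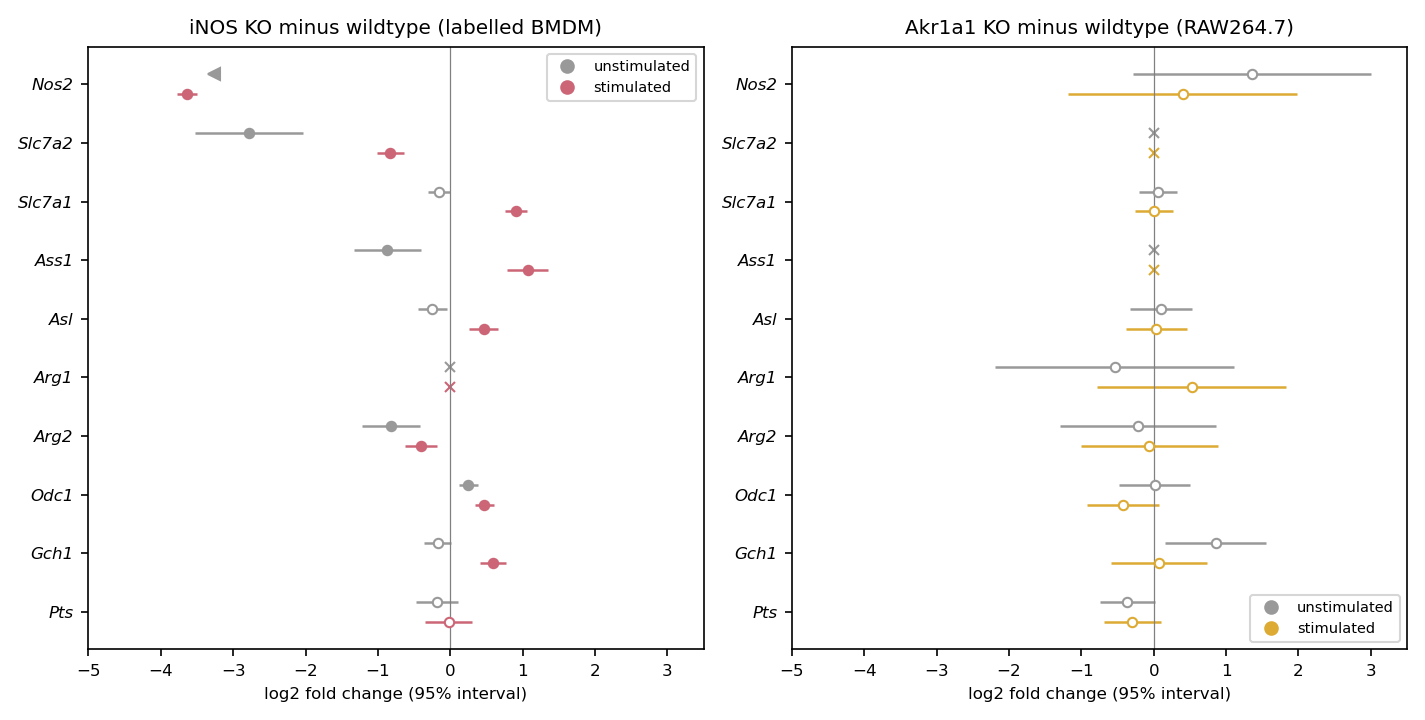
Log2 difference of KO minus wildtype with its 95% interval in unstimulated (grey) and stimulated (coloured) cells, filled where the adjusted p was under 0.05. In the iNOS experiment Ass1 lies at -0.87 before and 1.07 after stimulation, the triangle is the bound for Nos2 (at least 9.58-fold lower), crosses mark genes with at most 10 counts, and in the Akr1a1 experiment all intervals are drawn open.

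The interaction of genotype and stimulation tested whether the response itself differed between iNOS KO and wildtype cells. It was called for 6 members, Nos2 and 5 others that were positive, against 20.0% of all genes tested called positive and 15.4% negative. This test uses the same libraries as the comparisons above. For Ass1 the response was larger by 1.94 on the log2 scale in iNOS KO cells (standard error 0.25, adjusted p = 1.20e-05), for Slc7a1 by 1.07 (standard error 0.10, adjusted p = 2.51e-07), for Gch1 by 0.76 (standard error 0.12, adjusted p = 8.11e-05) and for Asl by 0.71 (standard error 0.13, adjusted p = 0.000443). For Slc7a2 it was 1.96 (standard error 0.38, adjusted p = 0.000534), which rested on 3 or 4 counts per unstimulated iNOS KO library, and the level of stimulated iNOS KO cells was below wildtype. For Nos2 it could not be sized, because the unstimulated iNOS KO libraries were at 0. Odc1 (0.22, adjusted p = 0.0554), Arg2 (0.42, adjusted p = 0.161), Pts (0.15, adjusted p = 0.624) and Arg1 did not pass. Odc1 passed when unstimulated wildtype replicate B, unstimulated iNOS KO replicate B or stimulated iNOS KO replicate A was left out (adjusted p = 0.034 to 0.0491).

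In RAW264.7 cells Akr1a1 KO was compared with wildtype in the same way, and 0 members were called by edgeR in either state or in the interaction. Of all genes tested, 0.286% were called in stimulated cells, 0.583% in unstimulated cells and 0.0204% for the interaction, in either direction. DESeq2 also called 0 members in each. At an unadjusted p under 0.05 there were 0 members in stimulated cells, 1 in unstimulated cells (Gch1) and 0 for the interaction. With 2 clones per group the 95% intervals in stimulated cells were wide for Nos2 (above), Arg1 (-0.78 to 1.83) and Arg2 (-1.01 to 0.88) on the log2 scale. They were narrower for Slc7a1 (-0.27 to 0.27) and Asl (-0.39 to 0.46).

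The other genes of these pathways were counted in 5 lists. In stimulated wildtype libraries labelled BMDM, of 9 tested genes of ornithine, proline, creatine and urea metabolism 1 rose and 8 fell, with a median log2 change of -1.64 against 0.07 over all genes, of which 32.4% were called higher and 28.5% lower. Gatm, which uses arginine for creatine synthesis, fell from 75.9 to 8.21 CPM (log2 -3.21, adjusted p = 2.89e-15), and Pycr1, of proline synthesis, fell by 2.59 on the log2 scale (adjusted p = 5.31e-06). Azin2, an antizyme inhibitor, rose from 1.91 to 12.8 CPM (log2 2.74, adjusted p = 2.00e-09). In stimulated iNOS KO compared with stimulated wildtype cells 6 of these 9 genes were higher and 1 lower (all genes 24.2% and 24.2%), with Gatm at 58.6 CPM (log2 2.83, adjusted p = 7.89e-14), Azin2 at 2.59 CPM (log2 -2.32, adjusted p = 3.29e-08) and Pycr1 at 1.87 CPM (log2 1.74, adjusted p = 0.00131).

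Of the 17 polyamine genes, 6 rose and 9 fell with stimulation in wildtype libraries labelled BMDM (all genes 32.4% and 28.5%). Odc1 rose while Srm, the spermidine synthase that uses its product, fell from 189 to 13.2 CPM (log2 -3.84, adjusted p = 5.24e-15). The catabolic genes Smox (spermine oxidase, from 35.9 to 292 CPM, log2 3.03, adjusted p = 8.63e-15) and Sat1 (spermidine/spermine acetyltransferase, from 66.8 to 390 CPM, log2 2.55, adjusted p = 5.48e-15) rose. In the same list Sat2 fell from 1.85 to 1.10 CPM (log2 -0.76, adjusted p = 0.0258), and Paox (polyamine oxidase) was not called (log2 -0.32, adjusted p = 0.133). In stimulated iNOS KO cells Srm was at 73.3 CPM, 2.47 above wildtype on the log2 scale (adjusted p = 5.24e-12), and 7 polyamine genes were higher and 4 lower (all genes 24.2% and 24.2%). Among those lower was Smox (log2 -0.93, adjusted p = 3.61e-08), and among those higher Amd1, which makes the aminopropyl donor and may share reads with its near copy Amd2 (log2 0.84). In stimulated RAW264.7 wildtype cells 3 polyamine genes rose and 7 fell (all genes 18.5% and 19.2%), with Smox at log2 2.66, Paox (polyamine oxidase) at -2.32 and Srm at -2.31.

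Of the 4 tetrahydrobiopterin genes tested besides Gch1 and Pts, 3 fell and none rose with stimulation in wildtype libraries labelled BMDM, with a median log2 change of -0.84, against 28.5% of all genes called lower and 32.4% higher. Gchfr, the feedback regulator of Gch1, fell from 8.24 CPM by 1.12 on the log2 scale (adjusted p = 7.19e-06). Spr, the last step of synthesis, fell from 49.1 to 26.3 CPM (log2 -0.90, adjusted p = 9.04e-08), and Qdpr, which regenerates the cofactor, from 46.2 to 27.0 CPM (log2 -0.78, adjusted p = 3.31e-07). In either direction, edgeR gave 3 of the 4 an unadjusted p under 0.05, and DESeq2 called 3. In stimulated iNOS KO cells 3 of the 4 genes were higher than in stimulated wildtype (24.2% of all genes), with Gchfr at 5.97 CPM (log2 0.65, adjusted p = 0.00303), Spr at 34.1 CPM (log2 0.37, adjusted p = 0.00223) and Pcbd2, of cofactor recycling, at 14.1 CPM (log2 0.28, adjusted p = 0.047). DESeq2 called 2 of the 4 in that comparison. In RAW264.7 wildtype cells 3 of 5 fell (19.2% of all genes), namely Qdpr (log2 -1.95), Gchfr (-1.87) and Spr (-1.31).

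Among 6 tested genes of arginine transport besides Slc7a1 and Slc7a2, 3 rose and 2 fell with stimulation in wildtype libraries labelled BMDM (all genes 32.4% and 28.5%). Slc3a2, the heavy chain shared by several amino acid transporters, rose from 263 to 1115 CPM (log2 2.09, adjusted p = 4.01e-14), and Slc25a15, the mitochondrial ornithine carrier, fell from 14.1 to 2.75 CPM (log2 -2.36, adjusted p = 1.87e-10). Slc7a3 was called higher from 0 counts in all unstimulated libraries to at most 5 counts in a library, so no fold is given. In stimulated iNOS KO cells Slc3a2 was lower than in wildtype (log2 -0.91, adjusted p = 3.78e-09) and Slc25a15 higher (log2 0.84, adjusted p = 0.000334). Of 5 tested relatives of NO synthase and methylarginine genes, 2 rose (32.4% of all genes). They were the neuronal synthase Nos1 (from 0.567 to 4.23 CPM, log2 2.89, adjusted p = 3.15e-07), which was lower in stimulated iNOS KO cells (log2 -2.11, adjusted p = 1.15e-05), and Nosip, an interaction partner of NO synthase (log2 0.37).

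**Figure D5:**
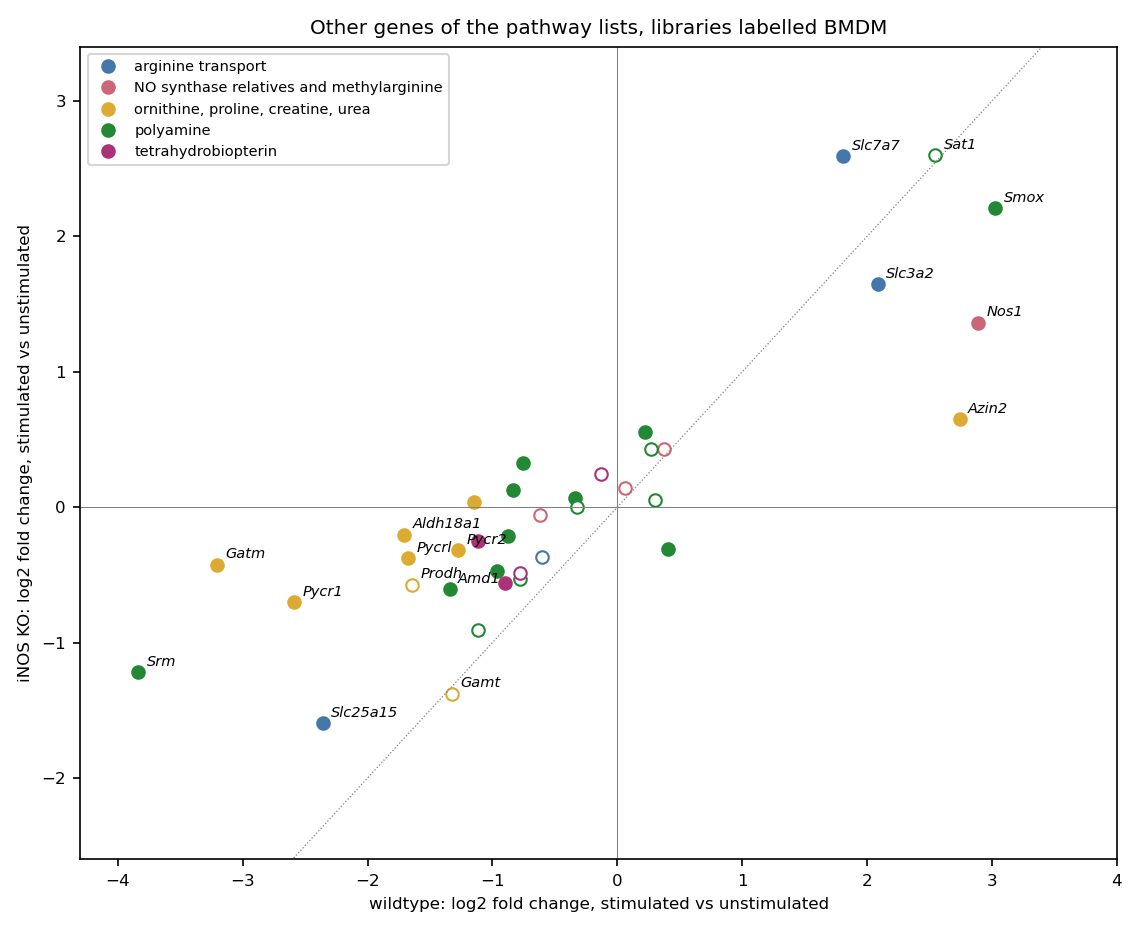
Log2 fold change with stimulation in wildtype (horizontal) and iNOS KO cells (vertical) labelled BMDM for the other genes of the 5 lists with more than 10 counts in some library, filled where the interaction passed an adjusted p under 0.05, with a dotted line of equal response. Srm and Gatm lie at -3.84 and -3.21 in wildtype and at -1.22 and -0.42 in iNOS KO cells.

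With stimulation of iNOS KO cells, 2 of the 6 transport genes rose and 2 fell, 2 of the 5 NO synthase relatives and methylarginine genes rose, and of the 9 ornithine, proline, creatine and urea genes 1 rose and 5 fell. Of the polyamine genes 4 rose and 5 fell there, and of the 4 tetrahydrobiopterin genes 2 fell. Of all genes, 27.3% rose and 24.6% fell in that comparison. The interaction was called for 4 transport genes, 1 NO synthase relative (Nos1), 7 genes of ornithine, proline, creatine and urea metabolism, 10 polyamine genes and 2 tetrahydrobiopterin genes, in either direction, against 20.0% of all genes called positive and 15.4% negative. DESeq2 called 3, 1, 7, 8 and 1 genes of these lists in the same order. In RAW264.7 wildtype cells stimulation was followed by 1 rise and 1 fall among 7 transport genes, 2 rises and 1 fall among 5 NO synthase relatives, and 7 falls among the 9 ornithine, proline, creatine and urea genes, against 18.5% of all genes higher and 19.2% lower.

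In unstimulated iNOS KO cells 2 genes of the 5 lists, both transport genes, were called lower than in wildtype, Slc7a7 (log2 -0.70) and Slc3a2 (log2 -0.47). Of all genes tested, 1.88% were called higher and 4.09% lower in that comparison. By edgeR, 0 of the 9 ornithine, proline, creatine and urea genes and 0 of the 17 polyamine genes were called (3 and 4 at an unadjusted p under 0.05, 0 and 0 by DESeq2) and none of the remaining 2 lists (0 at an unadjusted p under 0.05, 0 by DESeq2). In Akr1a1 KO against wildtype RAW264.7 cells edgeR called 0 genes of any of the 5 lists in either state. Of all genes tested it called 0.286% in stimulated and 0.583% in unstimulated cells. DESeq2 called 1 gene of ornithine, proline, creatine and urea metabolism in each state, with 4 and 3 genes of that list at an unadjusted p under 0.05.

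Nos2, Ass1 and Arg1 were set beside all other protein-coding genes with a mean log2 CPM over 3 in both experiments (8208 or 8209 genes), by the root mean square distance between their 8 group means of log2 CPM, centred within each experiment. The genes nearest to Nos2 were Rsad2 (distance 1.43), Gbp2b (1.59) and Gbp3 (1.64), against a range of 16.5 for Nos2 itself. Nearest to Ass1 were Tmsb10 (0.561), Acsl1 (0.624) and Mb21d2 (0.646), against a range of 5.04, with at most 10 counts of Ass1 in any RAW264.7 library. Nearest to Arg1, whose values rest on few counts, were Brpf3 (0.0792), Niban2 (0.152) and Micall1 (0.152). The 8 group means share libraries and depth, and the distance is a description.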

How the data were processed

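Poly(A) RNA was sequenced in the 20 libraries of both experiments. The deposited tables hold whole-number counts per gene, which the authors made by filtering reads, aligning them and counting them on genes, without normalization. For the alignment the methods name STAR and mm10. The listed gene positions name no build and do not share that of the promoter windows (GRCm38.p6). Gene lengths are those the deposited tables list, in bases. The 10 members, the lists and the tests were chosen with earlier results of these data known. A gene was tested where its counts over all libraries of the experiment summed to 10 or more. Counts were scaled by TMM and fitted per experiment with 1 mean per group by edgeR 4.0.16 (R 4.3.3) quasi-likelihood, with 2-sided tests, Benjamini-Hochberg adjustment over all genes tested and a call at an adjusted p under 0.05 (no fold limit). The tests were tried on simulated data. Library totals for CPM were scaled by TMM, and log2 CPM took a prior count of 2. The alternatives were DESeq2 1.42.0, its size factors, other filters, a fold limit, leaving out libraries, protein-coding genes alone, a fit of just the groups compared, and a block for the replicate letter. The methods call the 3 libraries per group of the first experiment biological replicates, of cells they name RAW264.7. Nothing in the labels says whether replicates of the libraries labelled BMDM were separate cultures, so p-values measure the spread between these samples, which may be technical. Between unstimulated and stimulated iNOS KO libraries, deviations of the same letter correlated in all 3 pairs (r = 0.404, 0.497 and 0.121). Between unstimulated wildtype and stimulated iNOS KO libraries they correlated negatively (r = -0.161, -0.517 and -0.443), so pairing by letter is not shown. The reported tests do not pair libraries, and the letter enters only as the block named above. In the other comparisons of that experiment not every pair was over 0.1. RAW264.7 groups had 2 pairs each, which necessarily give the same r with 2 libraries per group. Between unstimulated and stimulated libraries that r was 0.438 in wildtype and 0.103 in Akr1a1 KO cells. Between the RAW264.7 genotypes it was -0.165 to -0.00764. The counting program and its strand setting are not given in the sources used here. Figures used matplotlib 3.10.9 under Python 3.11.15.

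Named were the 10 members, at most 3 called genes per list with the largest change in the comparison described, and the 3 genes nearest to Nos2, Arg1 and Ass1. Sat2 and Paox were added beside Smox and Sat1. For the tetrahydrobiopterin list, 1 gene is not reported here.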

Additional observations from a re-analysis of the deposited data

Results flagged for a closer look

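In the libraries labelled BMDM the response to stimulation differed between iNOS KO and wildtype cells by the interaction test for 6 members. Besides Nos2, each had a larger rise or smaller fall in iNOS KO cells on the log2 scale. The differences were 1.94 for Ass1, 1.07 for Slc7a1, 0.76 for Gch1 and 0.71 for Asl, each carried by counts of 41 or more in every library. Slc7a2 had 1.96, with 3 or 4 counts in each unstimulated iNOS KO library. The fitted difference of 3.96 for Nos2 depends on the prior count, because unstimulated iNOS KO libraries were at 0 counts. The rise was 7873-fold in wildtype and at least 6073-fold in iNOS KO cells.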

How the results depend on the processing

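Of the counts of members called in the 10 comparisons, 94 of 100 values with 1 library left out and 78 of 83 under other settings stayed within 1.5 times the reported one, and no called difference of a member changed sign, whereas some differences that were not called did. Requiring an absolute log2 fold change over 1 left 2 members in stimulated and 2 in unstimulated iNOS KO against wildtype. At that limit 3655 and 310 of all 18691 genes tested were called. In unstimulated iNOS KO against wildtype, leaving out 1 library gave 2 to 6 members, while 685 to 2379 genes were called in all. Without a filter on counts, 2 members (Nos2 and Gch1) were called in unstimulated Akr1a1 KO against wildtype and 1 (Nos2) for its interaction, while 846 and 285 genes were called in all. Leaving out both unstimulated replicates B gave 4 members in stimulated RAW264.7 wildtype cells, with Arg1, Arg2 and Asl lost. In that setting 4217 of all 19569 genes tested were called. The cause was not tested.

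In unstimulated iNOS KO against wildtype, 2671 genes were called in a fit of just the groups compared against 1117 as reported. Akr1a1 KO against wildtype had 56 genes called in stimulated cells, 114 in unstimulated cells and 4 for the interaction, against 480, 406 and 90 by DESeq2.

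With the replicate letter as a block, no member gained or lost a call. The 5 comparisons of the iNOS experiment called 9, 8, 8, 5 and 6 members and 11170, 9509, 8858, 1054 and 6542 of all genes. Those of the Akr1a1 experiment called 7, 7, 0, 0 and 0 members and 7144, 7453, 63, 144 and 2 of all genes. Few counts limited Arg1 in all libraries labelled BMDM (at most 9 in a library) and Slc7a2 and Ass1 in RAW264.7 cells (at most 9 and 10).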
